A study of Homo sapiens with 6 samples.

Results

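The genes described here are 38 lysosome and autophagy genes, named in a list of symbols, out of 59008 gene symbols measured by RNA-seq in ovarian cancer cells. All 38 were found in the table. All 38 were also among the 14988 genes with a mean level of at least 1 TPM (transcripts per 1000000, a level scaled for transcript length and for the size of the library). CTSF, CTSH and TFEB, 3 of the 38, had a mean under 1 TPM in Hey and passed this filter only through SKOV3. Hey and SKOV3, both established human ovarian cancer cell lines, were each sequenced in 3 states with 1 library per state, 6 libraries in all. Parental cells were untreated. Polyploid giant cancer cells (PGCCs), enlarged cells with multiplied genomes that survive mitotic failure, were collected 3 days after 500 nM paclitaxel, a drug that stabilizes microtubules, had been applied for 16 h in the treatment labels and 16 to 18 h in the protocol. The treatment label of the SKOV3 PGCC library and the methods of the study give recovery day 3, whereas its title gives day 7. Daughter cells, which bud from PGCCs, had the same exposure and 30 days of recovery, and the label of each daughter library names it clone 1. No state had a replicate within a line, so a difference within a line has no error and no test. The share of PGCCs in the sequenced PGCC libraries is not given in the sources used here.

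Lysosomes are acidic organelles that break down proteins, sugars, lipids and worn-out organelles. Autophagy delivers such cargo by enclosing it in a double membrane that then fuses with the lysosome. TFEB and TFE3 are related transcription factors that switch on many lysosome and autophagy genes by binding an E-box with the core CACGTG, and a swollen lysosomal compartment is a common property of senescent cells, in which the galactosidase encoded by GLB1 is the enzyme behind the β-gal stain.

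The E-box sequences are shown first because they connect the transcription factors of the list with its enzymes and membrane proteins. RefSeq promoters of 300 bases (GRCh38.p14, 250 bases before to 50 after the start site) were matched for 29 of the 38 genes, with 43 promoters. CACGTG was present in 9 of these 43 promoters (20.9%) and in 7.26% of all 35116 promoters. The longer GTCACGTG, searched on both strands and containing the core, was present in 6 of the 43 (14.0%) and in 2.40% of all. These shares describe letters in a window, and binding was not measured. The 5 sequences below start 100 bases before the start site of genes with GTCACGTG and stop before the first base of any exon annotated in GENCODE release 44. Their coordinates are chr16:67481182-67481257 on the minus strand for ATP6V0D1, chr11:1763965-1764027 on the minus strand for CTSD, chr17:80101481-80101532 on the plus strand for GAA, chr13:113297139-113297238 on the plus strand for LAMP1 and chr19:7522524-7522623 on the plus strand for MCOLN1. The CTSD stretch lies in an intron of longer annotated CTSD transcripts, and the other 4 lie outside annotated genes. The matching stretch of CTSA, the other gene with GTCACGTG, lies in annotated exons and is not shown. Capitals mark CACGTG.
ATP6V0D1: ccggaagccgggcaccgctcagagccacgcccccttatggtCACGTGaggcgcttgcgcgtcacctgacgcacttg
CTSD: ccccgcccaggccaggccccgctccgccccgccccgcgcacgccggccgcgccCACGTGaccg
GAA: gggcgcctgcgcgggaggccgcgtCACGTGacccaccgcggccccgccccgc
LAMP1: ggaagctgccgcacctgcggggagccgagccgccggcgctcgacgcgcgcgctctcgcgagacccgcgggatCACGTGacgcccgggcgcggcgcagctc
MCOLN1: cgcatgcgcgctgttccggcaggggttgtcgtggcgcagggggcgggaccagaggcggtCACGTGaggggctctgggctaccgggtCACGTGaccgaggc
One whole core stands in each stretch except that of MCOLN1, which holds 2.

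Taken as a sum, the 38 genes were highest in PGCCs in both lines, but in SKOV3 this order depended on the mitochondrial genes. In Hey their summed level was 3401 TPM in parental cells, 4865 TPM in PGCCs and 3009 TPM in daughter cells, and in SKOV3 it was 3049, 3686 and 3411 TPM. As a share of the TPM outside mitochondrially encoded genes, the sum was 0.380, 0.608 and 0.357% in Hey and 0.368, 0.435 and 0.439% in SKOV3, where daughter cells were then highest by a narrow margin. A few abundant genes carried most of the sum, among them PSAP, which reached 1015 TPM in Hey PGCCs, and CD63, which lay between 385 and 554 TPM in all 6 libraries. The widest gap in the sum of a role between parental cells and PGCCs was that of the 5 autophagy genes in Hey, 450 against 995 TPM, and that of the 11 cathepsins and partners in SKOV3, 981 against 1454 TPM. In bulk RNA, fewer cells of a kind and less RNA per cell cannot be told apart.

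**Figure D1:**
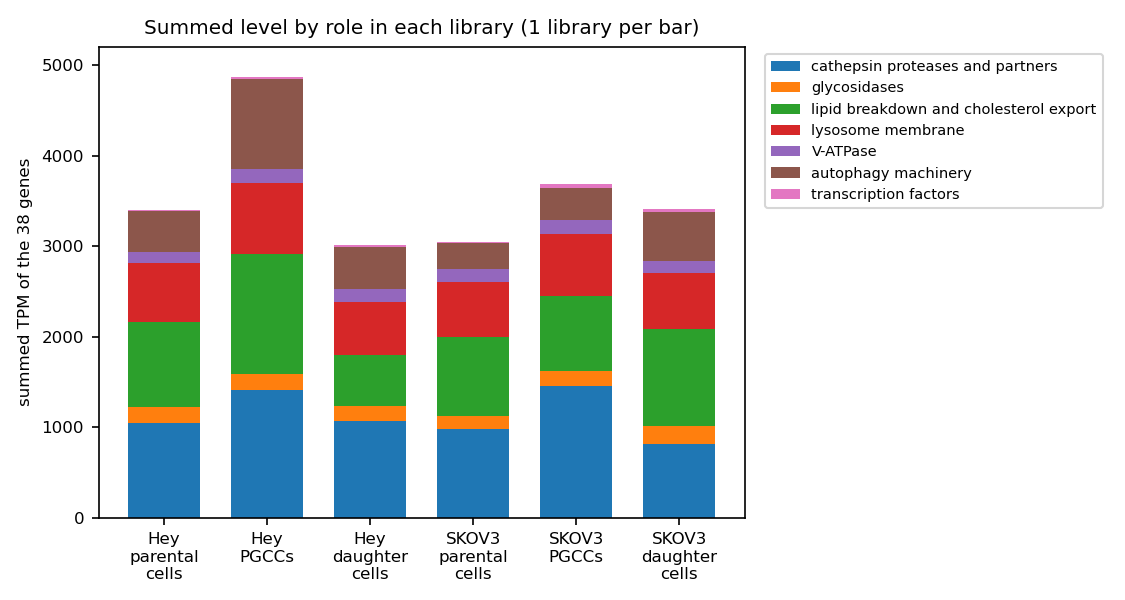
Summed level in TPM of the 38 genes (y axis, from 0) in each of the 6 libraries (x axis), with colours for the 7 roles and 1 library per bar. The tallest bar is that of Hey PGCCs at 4865 TPM, and the PGCC bar is the tallest in SKOV3 as well, at 3686 TPM, although SKOV3 daughter cells were highest as a share of the TPM outside mitochondrial genes (0.439 against 0.435%).

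Gene by gene, levels were compared as differences of log2(TPM + 1) within a line, a scale on which changes of genes near 1 TPM are understated. A gene was called at a difference of at least 1, which is 2-fold. In Hey, 34 of the 38 genes (89.5%) had a level in PGCCs above that in parental cells, against 49.97% of all 14988 genes, and the median difference was 0.46 against 0 over all genes. Most of these differences were small, and 5 genes were called higher (13.2%) where 7.67% of all genes were, with 0 called lower where 5.22% of all were. In SKOV3, 24 of 38 had a level above that of parental cells against 51.1% of all genes, and the median was 0.25 against 0.02. There 5 genes were called higher (13.2%) where 9.94% of all were, and 2 called lower (5.26%) where 4.96% were. No gene of the 38 passed 2-fold with the same sign in Hey and SKOV3, which 0.834% of all genes did in each direction. PGCCs held the highest of the 3 levels for 27 of the 38 genes in Hey, where 34.5% of all genes had theirs, and for 18 in SKOV3, where 31% of all did. With the trend with GC content and transcript length described below removed, PGCCs were above both other states for 29 genes in Hey, against 36.9% of all genes, and for 12 in SKOV3 (31.6%), against 30%.

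A lower bar of 1.5-fold was passed in both lines by 4 genes with higher levels in PGCCs than in parental cells (10.5%), where 3.3% of all genes passed it, and by 0 with lower levels, where 3.07% did. These were CTSA, NEU1, MAN2B1 and SQSTM1. CTSA, a carboxypeptidase, and NEU1, a sialidase that needs CTSA as a partner in the lysosome, had differences of 0.75 and 0.77 in Hey and of 0.78 and 0.68 in SKOV3. With the GC trend described next removed, the SKOV3 differences of the 4 genes were 0.28, 0.45, 0.26 and 0.25, all under 1.5-fold. In daughter cells against parental cells 1 gene passed this bar in both lines, TFE3 (2.63%), where 4.88% of all genes passed higher, and 0 passed lower, where 1.52% did. The Hey difference of TFE3 was 0.53 with the GC trend removed, under 1.5-fold. In PGCCs against daughter cells 3 genes passed it, CTSL, CTSS and ULK1 (7.89%), where 3.18% passed higher, and 0 lower, where 4.7% did. The SKOV3 differences of these 3 were 0.93, 2.83 and 0.08 with the GC trend removed, so that ULK1 no longer passed.

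**Figure D2:**
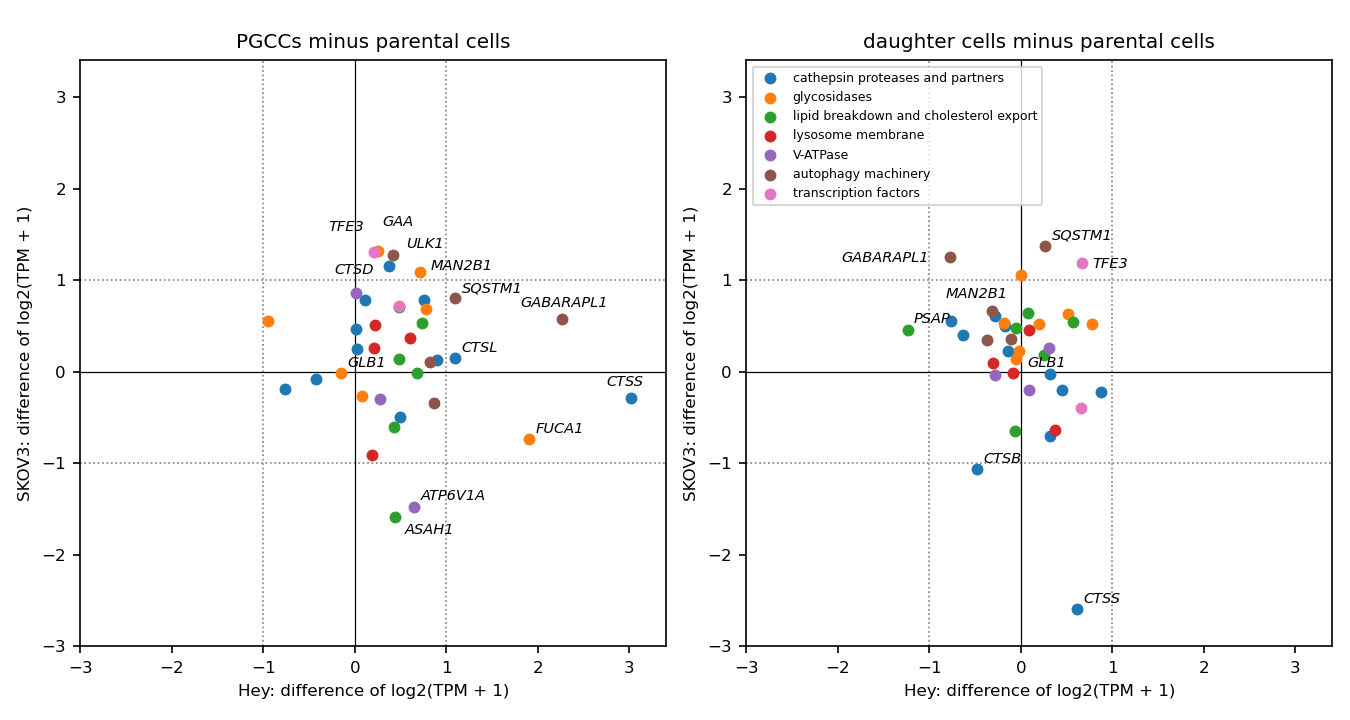
Difference of log2(TPM + 1) from parental cells in Hey (x axis) and in SKOV3 (y axis) for each of the 38 genes, for PGCCs on the left and daughter cells on the right, with colours for roles and dotted lines at 2-fold. No point lies in the upper right or lower left corner beyond both dotted lines in either panel. The names are those of genes past 2-fold in a line and of GLB1.

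In SKOV3 the difference between PGCCs and parental cells followed the GC content of the transcripts. Over the 13348 genes with a known GC content and length the Spearman correlation across genes was 0.722, and over the 38 genes, whose GC content ran from 36.0 to 64.8%, it was 0.809. In Hey these values were -0.04 and -0.31. The 13 members with the lowest GC content had a median difference in SKOV3 of -0.34 with 3 above 0, the middle 13 had 0.26 with 10 above 0, and the highest 12 had 0.83 with 11 above 0. The 5 SKOV3 genes called higher all had a GC content of at least 59.2%, and both called lower had at most 40.5%. When the trend with GC content and transcript length was subtracted, 0 members were called higher in SKOV3 PGCCs, where 2.23% of all genes were, the same 2 were called lower (5.26%), where 2.58% were, and the median of the 38 fell from 0.25 to 0.07. In Hey the same subtraction left the same 5 calls (13.2%, against 6.22% of all genes higher and 5% lower) and a median of 0.48. The difference between SKOV3 PGCCs and daughter cells followed GC content too, with a correlation of 0.456 over all genes and 0.540 over the members. What the trend comes from was not tested.

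**Figure D3:**
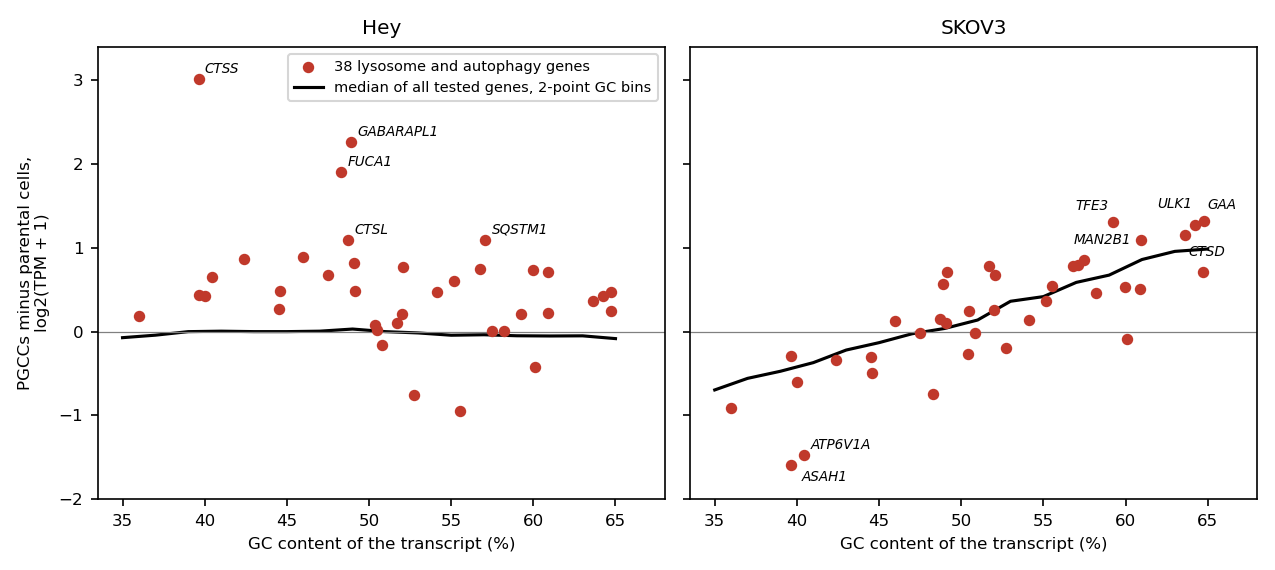
Difference of log2(TPM + 1) between PGCCs and parental cells (y axis) against GC content of the transcript in percent (x axis) for the 38 genes, in Hey and in SKOV3, with a line for the median of all tested genes in bins of 2 percentage points. The points of SKOV3 climb with GC content along the line, with a Spearman correlation of 0.809, while those of Hey do not (-0.31), and CTSS, GABARAPL1 and FUCA1 stand far above the line in Hey.

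As a combined test, limma was fitted to all 14988 genes with state and cell line as terms. For each gene the error starts from the disagreement between the lines, with 2 residual degrees of freedom. It is then drawn toward the spread of genes of similar level, so the p-values also rest on other genes. Of the 38 genes, 0 passed an adjusted p of 0.05 for PGCCs against parental cells, where 0.00667% of all genes passed higher and 0.0133% lower, and 0 passed at an unadjusted p of 0.05, where 1.16% of all genes were higher and 1.57% lower. The smallest p was that of SQSTM1, at a mean difference of 0.95 ± 0.435 (SE, limma adjusted p = 1), higher in 2 of 2 lines. For daughter cells against parental cells 0 of the 38 passed either threshold, where 2.43% of all genes were higher and 0.961% lower unadjusted. TFE3 had the smallest p at 0.92 ± 0.423 (SE, limma adjusted p = 1). All genes passed there in 0% higher and 0.0133% lower after adjustment. For PGCCs against daughter cells 0 of the 38 and 0% of all genes passed after adjustment, and 2 passed unadjusted, where 1.98% of all genes were higher and 3.08% lower, CTSS at 2.35 ± 0.793 (SE, limma adjusted p = 0.908) and CTSB at 1.21 ± 0.411 (SE, limma adjusted p = 0.908).

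The cathepsins are the proteases of the lysosome. CTSS, a cysteine protease best known from antigen presentation, had the largest difference of all 38 genes between PGCCs and parental cells. Its level in Hey was 8.24 TPM in parental cells, 73.9 TPM in PGCCs and 13.2 TPM in daughter cells, and in SKOV3 it was 21.5, 17.4 and 2.72 TPM. On the scale of TPM + 1, PGCCs stood 8.11-fold above parental cells in Hey and slightly below them in SKOV3 (differences of 3.02 and -0.29, the latter 0.18 with the GC trend removed). Relative to daughter cells, PGCCs were higher in both lines, by 2.40 in Hey and 2.31 in SKOV3. CTSS was the 1 member past 2-fold in Hey and SKOV3 alike in that comparison, where 1.07% of all genes were higher and 1.21% lower in both, and 0 members were lower. The sources of the difference were unlike, since in Hey the PGCC library was the high one and in SKOV3 the daughter library was the low one, at -2.60 against parental cells.

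CTSL, a broad cysteine protease, was at 117, 250 and 145 TPM in Hey parental cells, PGCCs and daughter cells, and at 177, 196 and 109 TPM in those of SKOV3. PGCCs stood 1.09 above parental cells in Hey and 0.15 above them in SKOV3. CTSD, the main aspartic protease, was at 95.0, 123 and 130 TPM in Hey and at 176, 394 and 153 TPM in SKOV3. SKOV3 PGCCs were the 1 high library of the 6, with a difference of 1.16 against parental cells that was 0.24 with the GC trend removed. CTSB, another abundant cysteine protease, was at 432, 465 and 310 TPM in Hey and at 229, 394 and 109 TPM in SKOV3. Daughter cells held the lowest CTSB level in each line, and in SKOV3 it differed by -1.06 from parental cells, while PGCCs stood 1.85 above it.

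The other cathepsins and TPP1, which trims tripeptides, were not called against parental cells in either line. CTSA, CTSC, which activates other proteases, CTSZ and TPP1 all lay between 43.9 and 173 TPM. CTSK, the collagen-cleaving enzyme of bone resorption, was low in Hey, at 1.35, 3.38 and 0.934 TPM, and at 5.19, 5.75 and 8.39 TPM in SKOV3. CTSF and CTSH marked the line rather than the state. CTSF was at 0.553 and 0.159 TPM in Hey parental cells and PGCCs, was listed at 0 in Hey daughter cells, and lay between 36.3 and 51.1 TPM in SKOV3. CTSH was at 0.696 TPM in Hey parental cells, was listed at 0 in the other Hey libraries, and lay between 24.1 and 41.1 TPM in SKOV3. Both passed the filter on mean level only through SKOV3.

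The glycosidases clip sugars from glycoproteins, glycolipids and glycogen. GLB1, the β-galactosidase behind the senescence stain that the study applied to PGCCs, varied little. The study stained PGCCs later in recovery than day 3, the day in the treatment labels of the PGCC libraries. Its level was 64.6, 57.9 and 63.5 TPM in Hey parental cells, PGCCs and daughter cells, and 39.4, 38.8 and 46.3 TPM in SKOV3. PGCCs were the lowest of the 3 states in each line, with differences of -0.16 and -0.02 from parental cells. The gene lies on chromosome 3 (GRCh38, 32996609 to 33097202), and its transcript abundance says nothing of enzyme activity or of the amount of protein.

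FUCA1, which removes fucose, was at 1.99, 10.2 and 4.11 TPM in Hey and at 15.8, 9.05 and 23.0 TPM in SKOV3. PGCCs were the highest state in Hey and the lowest in SKOV3, with differences from parental cells of 1.91 and -0.74. GAA, which digests glycogen, was at 7.62, 9.26 and 11.3 TPM in Hey and at 9.96, 26.4 and 15.9 TPM in SKOV3. Its SKOV3 difference of 1.32 between PGCCs and parental cells was 0.29 with the GC trend removed. MAN2B1, the lysosomal α-mannosidase, was at 14.6, 24.5 and 14.5 TPM in Hey and at 11.4, 25.5 and 24.8 TPM in SKOV3. In SKOV3 its daughter cells kept the higher level (1.05 against parental cells, 0.67 with the GC trend removed) while in Hey they did not (0.00). Among the rest, GUSB, a β-glucuronidase, was low in Hey PGCCs, at 12.5 TPM against 25.1 TPM in parental cells and 28.8 TPM in daughter cells, and it was called only against daughter cells (-1.14, or -0.97 with the GC trend removed).

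The 6 lipid genes break down lipids or move cholesterol out of the lysosome. All had a higher level in Hey PGCCs than in Hey parental cells, with a median difference of 0.48, but none was called. PSAP, the precursor of the saposins that present lipids to the hydrolases, was the most abundant of the 38 in every library except Hey daughter cells. Its level was 729, 1015 and 309 TPM in Hey and 529, 580 and 726 TPM in SKOV3. Hey daughter cells were the low library, at -1.24 against parental cells, and this was the 1 call against Hey parental cells among the 38 daughter values. ASAH1, the acid ceramidase, was at 30.2, 41.2 and 28.8 TPM in Hey and at 167, 54.9 and 106 TPM in SKOV3. SKOV3 parental cells were the high library, and the difference of PGCCs from them was -1.59, or -1.08 with the GC trend removed. NPC1 and NPC2, which hand cholesterol across the membrane, differed from parental cells by at most 0.71 in PGCCs, and SMPD1, the acid sphingomyelinase, and LIPA, the acid lipase, by at most 0.73.

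None of the 4 members of the lysosome membrane was called against parental cells. LAMP1, the main glycoprotein of the membrane, was at 102, 156 and 133 TPM in Hey and at 85.01, 110 and 54.1 TPM in SKOV3. PGCCs had the highest level in each line, with differences from parental cells of 0.60 and 0.36, both short of 2-fold, and the SKOV3 value was -0.06 with the GC trend removed. In SKOV3 the gap between PGCCs and daughter cells reached 2.01-fold, at the threshold, and its difference was 0.82 with the GC trend removed. LAMP2, its partner and a receptor for protein import into lysosomes, was lowest in SKOV3 PGCCs at 44.2 TPM, against 83.8 TPM in parental cells. That difference of -0.91 was -0.35 with the GC trend removed. MCOLN1, the calcium channel of the membrane, stayed between 4.09 and 6.22 TPM in all 6 libraries, and the tetraspanin CD63 differed from parental cells by at most 0.31.

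Of the V-ATPase, the pump that acidifies the lysosome, 3 subunits are members. ATP6V1A, its catalytic subunit, was at 22.6, 35.9 and 18.4 TPM in Hey and at 28.4, 9.56 and 27.6 TPM in SKOV3. PGCCs were the highest state in Hey and by far the lowest in SKOV3, with differences from parental cells of 0.65 and -1.48, the latter -1.07 with the GC trend removed. ATP6V0D1, of the membrane sector, and ATP6V1H, a regulator of the pump, were not called in any comparison, and the widest difference from parental cells was 0.86, for ATP6V0D1 in SKOV3 PGCCs.

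The 5 autophagy members start the process, shape and coat its membrane, or load its cargo. GABARAPL1, one of the ubiquitin-like proteins that coat autophagosomes, was at 28.0, 138 and 16.0 TPM in Hey and at 9.67, 14.8 and 24.3 TPM in SKOV3. Hey PGCCs were 4.81-fold above parental cells and 8.22-fold above daughter cells on the scale of TPM + 1 (differences of 2.27 and 3.04). In SKOV3 the daughter cells were instead the highest state, at 1.25 against parental cells, while in Hey they were the lowest, at -0.77. Its near-identical copy GABARAPL3, looked up after these values were seen, was at or below 0.0272 TPM in all libraries.

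SQSTM1, the cargo receptor p62, was at 278, 596 and 334 TPM in Hey and at 117, 204 and 304 TPM in SKOV3. Parental cells were the lowest state in each line, PGCCs stood 1.10 and 0.80 above them, and daughter cells stood 0.27 and 1.38 above them. MAP1LC3B, the LC3 protein used as a marker of autophagosomes, was at 114, 209 and 88.0 TPM in Hey and at 151, 119 and 192 TPM in SKOV3. PGCCs were its highest state in Hey and its lowest in SKOV3, with differences from parental cells of 0.87 and -0.34, and neither was called. The SKOV3 value was 0.03 with the GC trend removed. MAP1LC3B2, a near-identical copy also looked up afterwards, stayed between 0.411 and 1.89 TPM.

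ULK1, the kinase that starts autophagy, was at 5.61, 7.84 and 4.32 TPM in Hey and at 4.38, 12.1 and 7.51 TPM in SKOV3. PGCCs were its highest state in both lines, and the SKOV3 difference of 1.28 from parental cells was 0.21 with the GC trend removed. WIPI1, which binds the growing membrane, was highest in Hey PGCCs at 43.9 TPM and lay between 7.38 and 9.75 TPM in SKOV3. All 5 autophagy genes were higher in Hey PGCCs than in either other Hey library, with a median difference of 0.87 from parental cells and 0.93 from daughter cells. All 5 were higher in SKOV3 daughter cells than in SKOV3 parental cells, against 58.8% of all genes, with a median of 0.66 that was 0.40 with the GC trend removed. Among these, 2 were called, where 15.1% of all genes were called higher.

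The transcription factors were expressed at unlike levels. TFEB was among the lowest of the 38, at 0.359, 0.893 and 1.14 TPM in Hey and at 2.83, 5.27 and 1.91 TPM in SKOV3. In SKOV3 the PGCC library was the highest, 0.71 above parental cells and 1.11 above daughter cells, and with the GC trend removed these differences were -0.27 and 0.49. TFE3 was at 14.0, 16.3 and 22.7 TPM in Hey and at 12.9, 33.3 and 30.4 TPM in SKOV3. Parental cells were the lowest state in both lines, and daughter cells stood 0.66 above them in Hey and 1.18 in SKOV3. For TFE3 the SKOV3 difference in PGCCs was 1.31, or 0.58 with the GC trend removed. The 6 members with GTCACGTG in the promoter, ATP6V0D1, CTSA, CTSD, GAA, LAMP1 and MCOLN1, had differences between PGCCs and parental cells from 0.01 to 0.75 in Hey and from 0.36 to 1.32 in SKOV3, the latter from -0.27 to 0.32 with the GC trend removed.

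**Figure D4:**
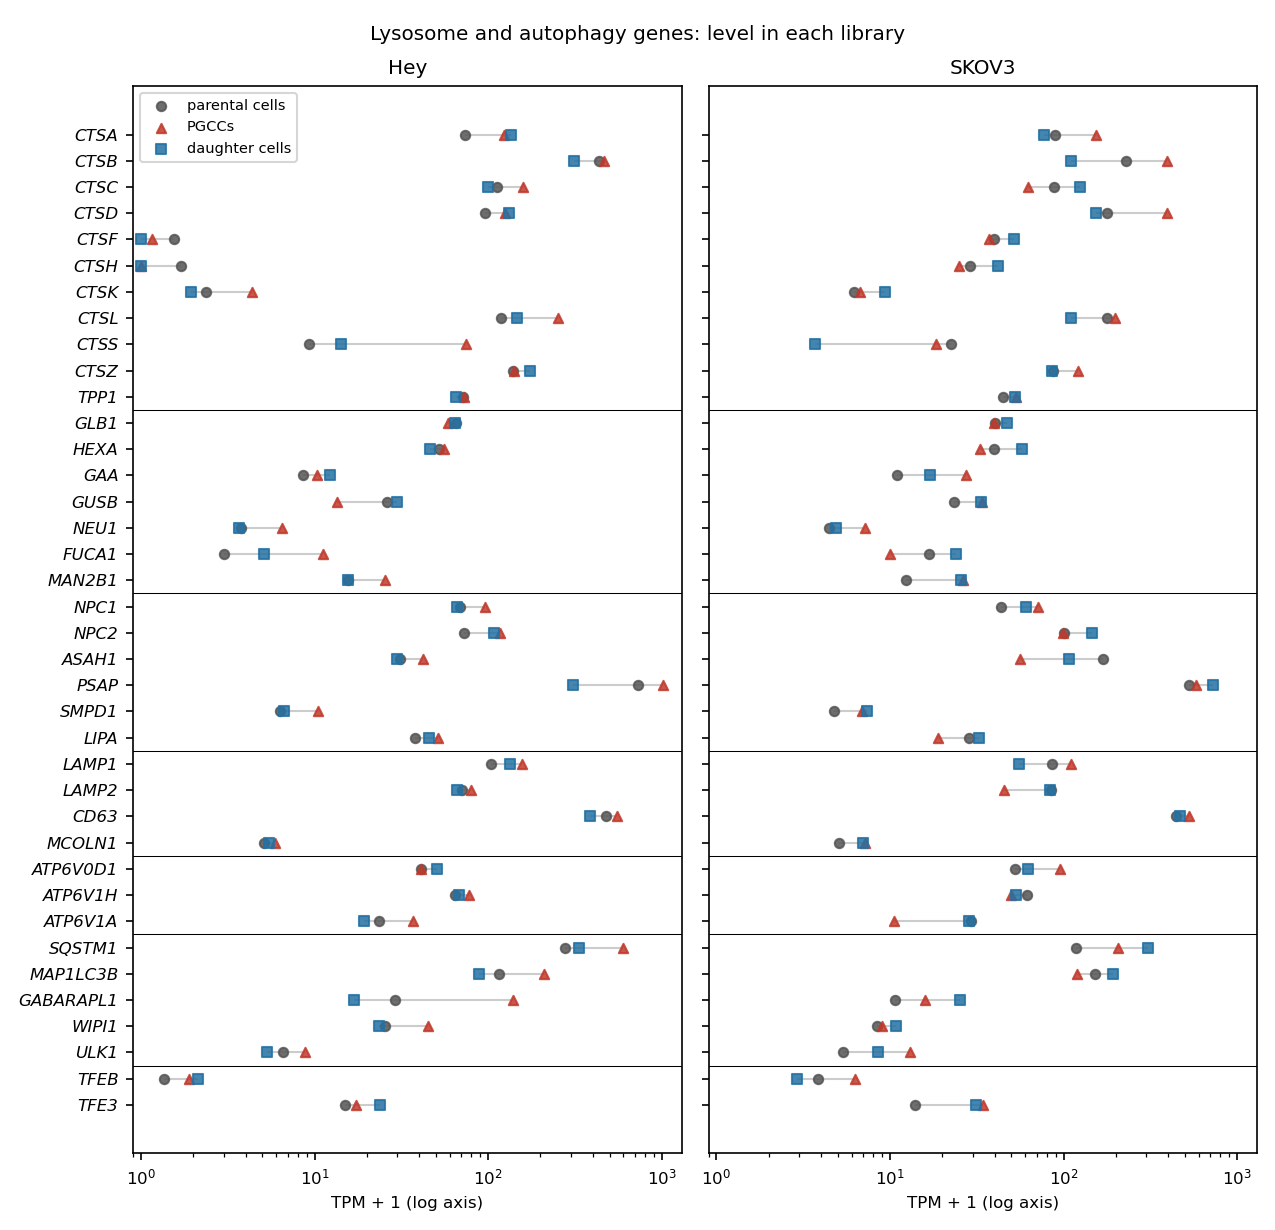
Level of each of the 38 genes as TPM + 1 on a log axis (x axis) in parental cells (circles), PGCCs (triangles) and daughter cells (squares) of Hey and SKOV3, 1 library per symbol, with lines between roles. The triangle is the rightmost symbol for 27 genes in Hey and for 18 in SKOV3, and CTSF and CTSH sit near 0 TPM in Hey and between 24.1 and 51.1 TPM in SKOV3.

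Daughter cells were then compared with the same parental libraries, so the PGCC and daughter differences of a line share their parental values. In Hey, 18 of the 38 genes were above parental cells against 53.9% of all genes, with a median of -0.01 against 0.05. There 0 were called higher, where 6.31% of all genes were, and 1 lower, PSAP (2.63%), where 3.73% were. In SKOV3, 26 of 38 were above parental cells against 58.8% of all, with a median of 0.35 against 0.15. There 4 were called higher (10.5%), MAN2B1, SQSTM1, GABARAPL1 and TFE3, where 15.1% of all genes were, and 2 lower (5.26%), CTSB and CTSS, where 6.34% were. With the GC trend removed, SQSTM1 (1.10) and GABARAPL1 (1.21) still passed 2-fold, MAN2B1 (0.67) and TFE3 (0.81) did not, and CTSB (-1.32) and CTSS (-2.62) still did. The shares over all genes were then 11% higher and 7.54% lower. In both lines together 0 were called higher, where 1.19% of all genes were, and 0 lower, where 0.387% were.

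Against daughter cells, PGCCs of Hey had 6 genes called higher (15.8%), where 8.13% of all genes were: CTSK, CTSS, FUCA1, PSAP, MAP1LC3B and GABARAPL1. GUSB was the 1 called lower (2.63%), where 9.95% of all were. PGCCs of SKOV3 had 5 called higher (13.2%), CTSB, CTSD, CTSS, LAMP1 and TFEB, where 9.25% of all were, and 2 lower (5.26%), FUCA1 and ATP6V1A, where 14.6% were. With the GC trend removed, CTSB (1.90), CTSS and FUCA1 (-1.14) still passed in SKOV3, where 7.25% of all genes were higher and 10.5% lower, while CTSD (0.76), LAMP1 (0.82), TFEB (0.49) and ATP6V1A (-0.96) did not. In Hey the 6 higher calls remained and NEU1 (1.00) and SQSTM1 (1.03) joined them, where 8.43% of all genes were higher, and GUSB no longer passed, where 8.08% were lower. This comparison shares the PGCC libraries with the one against parental cells. The median over the 38 was 0.39 in Hey against -0.03 over all genes, and -0.04 in SKOV3 against -0.12. The sign of that SKOV3 median depended on the setting, with 0.11 after median-ratio scaling, 0.06 after quantile scaling, -0.15 without mitochondrial genes and -0.22 with the GC trend removed, against 0, 0.01, -0.23 and 0.01 over all genes. For PSAP, MAP1LC3B, GABARAPL1 and CTSK the Hey differences of 1.71, 1.24, 3.04 and 1.18 came with daughter levels below those of parental cells. CTSS and FUCA1 had Hey daughter levels above those of parental cells.

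Some members separated the lines in every state. CTSF, CTSH and TFEB had all 3 SKOV3 levels above the 3 Hey levels, but they were among the tested genes only because of SKOV3, so these levels are given without a test. Of the 35 members with a mean of at least 1 TPM in each line, 4 had all SKOV3 levels above those of Hey, CTSD, CTSK, ASAH1 and ATP6V0D1 (11.4%), where 27.7% of the 12416 such genes did, and 6 had them below, CTSZ, TPP1, GLB1, LIPA, ATP6V1H and WIPI1 (17.1%), where 11.8% did. In limma with state as a term and adjustment over all genes tested, 1 of the 35 was higher in SKOV3 (2.86%), where 10.9% of the 12416 passed, and 1 was lower, where 5.13% passed. ASAH1 was higher by 1.56 ± 0.426 (SE, limma adjusted p = 0.0408), and WIPI1 differed by -1.68 ± 0.357 (SE, limma adjusted p = 0.0176), each with the same sign in 3 of 3 states. Neither gene passed when the Hey or the SKOV3 PGCC library was left out, and 0 of all genes did.

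The rest of the pathway was read from 6 lists of 143 further genes, of which 132 reached a mean of 1 TPM. In Hey PGCCs 7 of these were called higher (5.30%) and 2 lower (1.52%) than in parental cells, where 7.67% and 5.22% of all genes were. In SKOV3 PGCCs 16 were called higher (12.1%) and 4 lower (3.03%), where 9.94% and 4.96% of all were. Once the GC trend was removed, 1 (MITF, 0.763%) and 0 were called in SKOV3, where 2.23% and 2.58% of all were. Against parental cells, 1 of the 132 genes was called in PGCCs of both lines, where 0.834% of all genes were in each direction. This was ATP6V0C, which forms the proton ring of the V-ATPase. Its level was 17.8, 42.0 and 19.6 TPM in Hey and 23.9, 52.2 and 21.7 TPM in SKOV3, so that PGCCs were the high library in each, by 1.20 and 1.09 against parental cells, the SKOV3 value being 0.21 with the GC trend removed. Of the 16 further V-ATPase genes tested, 14 were above parental cells in Hey PGCCs, with a median of 0.56. There 3 were called higher (18.8%, against 7.67% of all genes), ATP6V0B (1.17), ATP6V0C and ATP6V0E1 (1.05). In SKOV3 9 of the 16 were above, with a median of 0.13. ATP6V0C and TCIRG1 (1.68, or 0.65 with the GC trend removed) were called higher (12.5%, against 9.94% of all genes).

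Among 24 further enzymes, 20 were above parental cells in Hey PGCCs and 13 in SKOV3 PGCCs. LGMN, the protease legumain, was the 1 called in Hey (1.28, 4.17% of the list), where 7.67% of all genes were called higher. In SKOV3 5 were called higher (20.8%), where 9.94% of all genes were, and 0 with the GC trend removed. PLA2G15, a lysosomal phospholipase, had the largest difference there (1.48, or 0.75 with the GC trend removed). Among 16 further membrane genes, 13 were above in Hey and 5 in SKOV3. SLC17A5, the sialic acid exporter (1.39), and OSTM1 (1.07) were called higher in Hey (12.5% of the list), where 7.67% of all genes were. OSTM1 was called lower in SKOV3 (-1.01, or -0.43 with the GC trend removed), 6.25% of the list, where 4.96% of all genes were lower. In SKOV3 3 membrane genes were called higher (18.8%), where 9.94% of all genes were. With the GC trend removed 0 were, against 2.23% of all genes. The largest differences were those of CLCN7, a chloride and proton exchanger (1.60), and CLN3 (1.35), which were 0.59 and 0.67 with the GC trend removed. Of 40 further autophagy genes, 23 were above in Hey with 0 called higher and ATG16L1 called lower (-1.04, 2.5% of the list). Over all genes, 7.67% were higher and 5.22% lower there. In SKOV3 21 were above, with 3 called each way (7.5% each), where 9.94% of all genes were higher and 4.96% lower. With the GC trend removed 0 were called each way. The broad autophagy list had a median of 0.14 in Hey, against 0.87 for the 5 member genes. Both sets were chosen with earlier results of these data known, so this gap is not read as a result.

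Genes that control the pathway and genes that deliver its enzymes had medians of -0.01 and -0.04 in Hey PGCCs. In SKOV3 PGCCs these medians were 0.22 and 0.52, and -0.06 and 0.06 with the GC trend removed. Of 20 control genes, which include the TOR kinase and its regulators, 10 were above parental cells in Hey PGCCs and 14 in SKOV3 PGCCs. RRAGD, a small GTPase of that circuit, was called higher (1.23) and TSC2, a brake on it, lower (-1.27) in Hey. Each was 5% of the list, where 7.67% of all genes were higher and 5.22% lower. MITF, a relative of TFEB and TFE3, was at 10.6, 24.2 and 41.3 TPM in SKOV3 and at 4.41, 3.62 and 6.83 TPM in Hey. In SKOV3 both later states were above parental cells, by 1.11 and 1.86, and by 1.45 and 1.76 with the GC trend removed. Of 16 delivery genes, such as sorting receptors and tethers, 7 were above in Hey with 0 called and 11 in SKOV3. There VPS16 was called higher (1.13, or 0.57 with the GC trend removed), 6.25% of the list against 9.94% of all genes. In daughter cells against parental cells, 1 gene of the 132 was called higher in both lines, where 1.19% of all genes were. This was RRAGB, another GTPase of the circuit, higher by 1.89 in Hey and 1.57 in SKOV3. In PGCCs against daughter cells, ATP6V0C (1.06 and 1.22) and ATG12 (1.08 and 1.51) were called higher in Hey and SKOV3, where 1.07% of all genes were. RRAGB was called lower in both (-1.10 and -1.19), where 1.21% were. With the GC trend removed, the SKOV3 values of these 3 were 0.57, 2.17 and -0.97. CD68, a membrane protein abundant in macrophages, was at 17.1 and 20.03 TPM in SKOV3 parental cells and PGCCs and at 0.840 TPM in SKOV3 daughter cells.

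Facts of the libraries that bear on these values are as follows. The columns summed to between 911825 and 920497 TPM, and TPM keeps no read counts, so depth per gene is unknown. Mitochondrially encoded genes took 2.64, 12.3 and 7.60% of the TPM in Hey parental cells, PGCCs and daughter cells and 9.17, 7.37 and 14.8% in those of SKOV3. When these genes were left out, the median of all genes shifted to 0.11 in Hey PGCCs against parental cells, with a member median of 0.58 and 34 members above 0. Median-ratio scaling gave 31 members above 0 there and quantile scaling 34. In SKOV3 daughter cells, where the median of all genes was 0.15, quantile scaling brought it to -0.04, the member median from 0.35 to 0.20 and the members above 0 to 24. Epithelial markers summed to between 1114 and 3346 TPM, most of it from the keratins KRT7, KRT8 and KRT18. In Hey, CDH1 and MUC16 were near 0, and EPCAM and KRT19 were at or below 1.43 and 3.60 TPM. MSLN was at 21.5, 23.3 and 0.386 TPM in Hey parental cells, PGCCs and daughter cells, and at 33.1, 46.1 and 1.85 TPM in SKOV3. EPCAM was at 68.8, 43.6 and 8.15 TPM in those of SKOV3, and KRT19 at 292, 711 and 80.2 TPM. KRT8 and MUC16 were also below parental cells in SKOV3 daughter cells, whereas KRT7, KRT18, CDH1, PAX8 and WT1 were above. All 10 macrophage markers, whose cells are rich in lysosomes, were at or below 0.810 TPM in every library. Their sums were 0, 2.87 and 1.73 TPM in Hey and 0.311, 0.576 and 1.08 TPM in SKOV3, and TYROBP and FCGR3A were at 0 in all 6. The 10 fibroblast markers summed to 59.0, 71.3 and 59.4 TPM in Hey and to 14.2, 14.6 and 29.6 TPM in SKOV3. In Hey most of this was ACTA2, at 47.3, 54.7 and 56.3 TPM. In SKOV3 COL1A1 was at 2.35, 1.33 and 16.3 TPM and PDGFRB at 0.280, 0.0404 and 5.35 TPM. LUM, DCN, COL1A2 and FAP were instead lower in SKOV3 daughter cells than in parental cells. The part of these markers in any difference was not tested.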

How the data were processed

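Each state of each cell line was sequenced as 1 RNA library. The submitters' processing notes name fastp without its role, the reads were quantified with salmon 0.14.1 on hg38, and the authors deposited TPM values, 1 per gene symbol and library. How transcripts were combined into symbols, the annotation release and the strand of the libraries are not given in the sources used here. TPM holds no counts, so tests made for counts were not used.

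Differences are of log2(TPM + 1) within a line, called at 1 (2-fold), over the 14988 genes that reached 1 TPM on average. The limma fit (limma 3.58.1, R 4.3.3) used all 6 libraries, state and cell line, an intensity trend and Benjamini-Hochberg adjustment over all genes. Nothing says that libraries came from separate cultures. The p-values of the fit measure disagreement between the lines, moderated by the spread of other genes. Counts of genes that separate the lines were taken over the 12416 genes with a mean of at least 1 TPM in each line, a limit set after the data were seen. GC content and length came from GENCODE 44 by symbol (13348 of 14988 genes), and their trend was removed by lowess (fraction 0.3, 2 passes). Other steps used Python 3.11.15, pandas 2.3.3 and statsmodels 0.14.6.

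The members and the lists were chosen with earlier results of these data known. By rule, every member could be named, with all 6 levels for those called against parental cells and for GLB1, LAMP1, TFEB, TFE3, SQSTM1 and MAP1LC3B. Other pathway genes were named where called in both lines, or among the 2 largest or smallest differences of a list. ATP6V0E1 falls outside that rule and was named after its values were seen. Alternatives were a pseudocount of 0.1, all genes above 0, a mean TPM of 5, median-ratio and quantile scaling, mitochondrial genes left out, a 1.5-fold call, the GC and length trend removed, and for limma no trend and each library left out. On simulated data with 200 of 14988 genes changed 4-fold between PGCCs and parental cells, 194 were called by the threshold in both lines. By limma 199 were called, and unchanged genes called were 0 and 7. The simulation had no difference between the lines, no GC trend and the same change in both lines. It checks that the steps run, and its rates do not carry over to the measured data.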

Additional observations from a re-analysis of the deposited data

Results flagged for a closer look

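For 5 genes the 2 lines differed in opposite directions between the same states, by at least 1.5-fold in each line and 2-fold in one. The rule was applied to the 38 members only, and how many of all genes meet it was not counted, so the count says nothing particular to them. With 1 library per state and line, no difference between the lines was tested. FUCA1 in PGCCs differed from parental cells by 1.91 in Hey and by -0.74 in SKOV3, a gap of 2.65, and the PGCC difference from daughter cells was 1.13 and -1.25, a gap of 2.39. For ATP6V1A these were 0.65 and -1.48, a gap of 2.12, and 0.93 and -1.44, a gap of 2.37. With the GC trend removed the gaps pointed the same way, from 1.85 and -0.68 for FUCA1 and from 0.71 and -1.07 for ATP6V1A in PGCCs against parental cells, and from 1.20 and -1.14 and from 1.00 and -0.96 in PGCCs against daughter cells.

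GABARAPL1 was lower in daughter cells than in parental cells in Hey (-0.77) and higher in SKOV3 (1.25), a gap of -2.02. Between PGCCs and daughter cells its values were 3.04 and -0.68, a gap of 3.72, the widest of the 8. MAP1LC3B, from the same protein family, gave 1.24 and -0.69 in that comparison, a gap of 1.93, but with the GC trend removed the SKOV3 value was -0.35, under 1.5-fold. With that trend removed the GABARAPL1 values were 3.10 and -0.59. For CTSS, daughter cells differed from parental cells by 0.62 in Hey and by -2.60 in SKOV3, a gap of 3.22.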

How the results depend on the processing

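No called difference changed direction under any alternative. Of 33 called differences of members within a line, 33 stayed past the call with a pseudocount of 0.1 and with all genes, 31 under each of median-ratio scaling, quantile scaling and mitochondrial genes left out, 31 at a mean TPM of 5, which drops 2, and 21 with the GC and length trend removed. Counts that moved by over 1.5 times follow, in members. With a pseudocount of 0.1, Hey PGCCs against parental cells gave 3 lower, and Hey daughter cells 2 higher and 3 lower. Of all 14988 genes, 1086, 1631 and 1025 were called in these ways. Median-ratio scaling gave 1 lower in Hey PGCCs and 2 higher in SKOV3 daughter cells, against 927 and 1628 of all 14848 genes. Quantile scaling gave 1 lower in Hey PGCCs, 3 lower in Hey daughter cells and 0 lower in Hey PGCCs against daughter cells. Of all 14968 genes, 885, 699 and 1347 were lower there. Without mitochondrial genes SKOV3 daughter cells had 1 lower, and SKOV3 PGCCs against daughter cells 5 lower, against 872 and 2733 of all 15280 genes. With the GC trend removed, Hey PGCCs against daughter cells had 0 lower, SKOV3 PGCCs 0 higher, SKOV3 daughter cells 2 higher, and SKOV3 PGCCs against daughter cells 2 higher and 1 lower. Of all genes, 8.08, 2.23, 11, 7.25 and 10.5% were called in these ways. At 1.5-fold, the counts higher and lower were 15 and 2 (Hey PGCCs), 5 and 4 (Hey daughter cells), 12 and 5 (SKOV3 PGCCs), 8 and 5 (SKOV3 daughter cells) and 10 and 10 (SKOV3 PGCCs against daughter cells), with 15 higher in Hey PGCCs against daughter cells, and 4, 1 and 3 higher in both lines. Over all 14988 genes these counts were, in the same order, 2557 and 2164, 2580 and 1600, 3435 and 2447, 4210 and 2038, and 2803 and 4192, with 2580 higher. In both lines 3.3, 4.88 and 3.18% of all genes were higher. The causes were not tested.

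In limma, 3 genes of all passed for PGCCs and 2 for daughter cells against parental cells. Each count was 0 with a pseudocount of 0.1 and at a mean TPM of 5, and when each library was left out in turn it ranged from 0 to 1 and from 0 to 105. The range was 0 to 67 for PGCCs against daughter cells. The counts of 105 and 67 came without Hey daughter cells, and members passing in these contrasts stayed at 0. For SKOV3 against Hey, 3093 genes passed, with a range of 0 to 2120 when each library was left out, and of 0 to 4 for members, where 4 passed, CTSF and CTSH among them, which reached the filter only through SKOV3. Both were 0 without Hey PGCCs or without SKOV3 PGCCs. The filter favours a pass of CTSF and CTSH in this contrast, so theirs is not read as a result. The other members passing were ASAH1 and WIPI1, given above beside the shares over genes measured in each line. A state left with 1 library is assumed to vary like the others. The fit already compares states within lines, since cell line is a term, and no replicate numbers exist for a further block. With no read counts, counting error is unknown, and 1 library per state leaves every within-line difference without an error.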
